A study of Rattus norvegicus with 2 samples.

Results

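Mast cell genes were compared between uncultured rat lung cells and a control RNA called mix1. The set was chosen by gene symbol and holds 10 genes: Fcer1a and Ms4a2, which encode chains of the high-affinity IgE receptor, the growth factor receptor gene Kit, the granule protease genes Cpa3, Cma1, Mcpt1, Mcpt2 and Tpsab1, and the mediator-synthesis genes Hdc and Hpgds. Of the 40012 probes on the array, 12 carried the symbol of a member, and they covered 9 of the 10 genes. Mcpt2 had no probe under that symbol and was not analysed here. The probe annotated as Mcpt1 belongs to another gene, Vch, in the current annotation. By current names, 8 of the 10 genes were therefore measured.

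The study used 2 two-colour Agilent oligonucleotide arrays, lung replicates 1 and 2. On each array the lung sample, untreated and taken without culture, was labelled with Cy3, and mix1 with Cy5. Mix1 combined bone marrow cells and primary ear fibroblasts of the rat, both cultured in medium with fetal bovine serum. The labels used here give neither strain, age and sex of the rats nor the proportions of the mixture. Nor do they state that the lung RNAs are from different animals, and p-values therefore cover only the difference between these samples, which may be technical. A single control RNA gives no spread of its own, and with no dye swap a dye effect cannot be told apart from the difference between the RNAs.

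Values are log2 ratios, read as lung over mix1. That direction is likely but is stated by no source. It follows the series' wording, and 6 lung epithelial genes used to settle it (Sftpc, Sftpa1, Sftpb, Sftpd, Scgb1a1 and Ager) had ratios from 3.94 to 7.02. Were the sign turned, all directions below would turn with it. The log base is also not stated, and fold changes rest on base 2. The arrays correlated with Pearson's r of 0.975 and Spearman's rho of 0.955 across all probes, which are not independent replicates. Their medians were -0.16 in replicate 1 and -0.21 in replicate 2, and subtracting them raised ratios by 0.19 on average. In limma's moderated test against 0 with Benjamini-Hochberg adjustment over all probes, 33.2% of probes were higher and 42.7% lower in lung at an adjusted p under 0.05, together 75.9%. Ratios past 2-fold in both arrays were reached upward by 17.8% of probes and downward by 13.4%. The number of arrays limits the precision of every value.

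Mast cells are tissue-resident granulated cells that arise from marrow progenitors and mature in tissues, where survival depends on KIT and its ligand. They bind IgE through a receptor made of an alpha chain that holds the antibody, a beta chain that amplifies the signal and a gamma chain shared with other Fc receptors. On activation they release stored histamine, heparin-bound chymases, tryptases and carboxypeptidase, and newly made prostaglandin D2 and leukotrienes. In the lung they lie along airways, vessels and the pleura.

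Most mast cell genes were higher in lung than in mix1. Of the 12 member probes, 10 were higher (33.2% of all probes were, and 75.9% passed in either direction), and none was lower, also at an unadjusted p under 0.05. The other 2 probes, 1 for Tpsab1 and 1 for Kit, did not pass. The 10 higher probes include the one annotated as Mcpt1, which now belongs to Vch. At least 2-fold higher ratios in both arrays were found for 8 of 12 probes, against 17.8% of all probes. The median of the member probes was 2.56, and that of all probes was -0.20. RNA came from bulk cells, so fewer cells of a type in mix1 and less RNA per cell cannot be told apart. The arrays differed by a median of 0.10 over the member probes, close to the 0.096 over all probes, and replicate 1 was above replicate 2 for 8 of the 12.

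**Figure D1:**
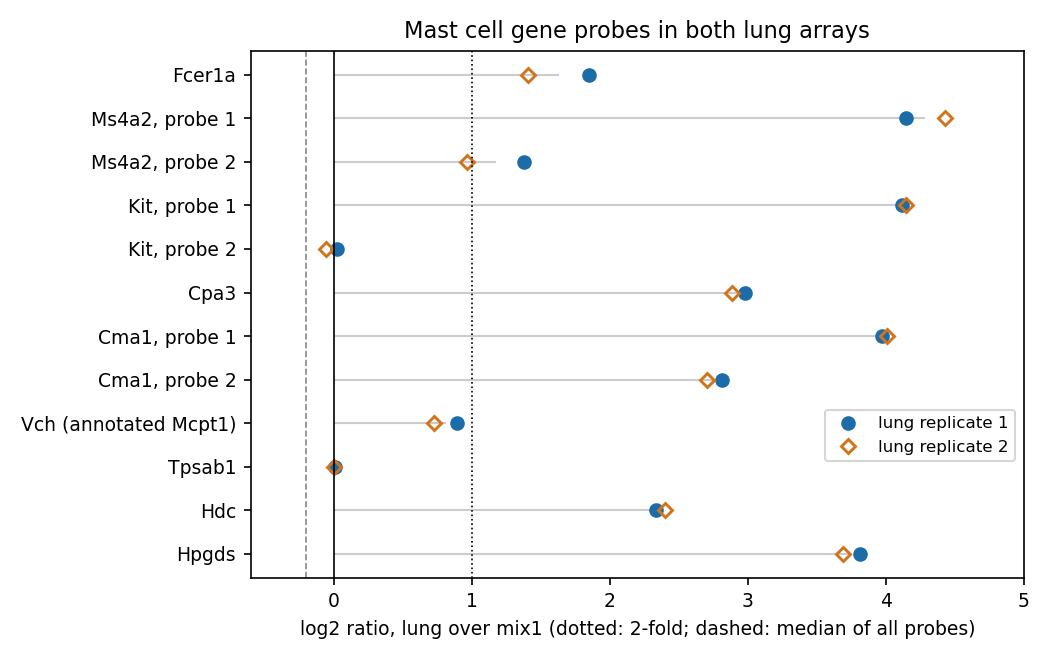
Log2 ratios of lung over mix1 (x axis) for each of the 12 member probes (rows, grouped by role), with filled circles for lung replicate 1 and open diamonds for lung replicate 2; grey lines run from 0 to the mean. The arrays lie farthest apart for Fcer1a, by 0.44, and the probes for Tpsab1 and Kit (probe 2) lie at about 0.

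The IgE receptor chains were both higher in lung. The alpha chain gene Fcer1a, which binds the antibody itself, had a log2 ratio of 1.85 in replicate 1 and 1.41 in replicate 2. Both arrays were above 2-fold, although they lay 0.44 apart, the widest array difference among the members. The mean was 1.63 ± 0.31 (SD, n = 2), or 3.09-fold (limma adjusted p 0.00962). The beta chain gene Ms4a2 was measured by 2 probes annotated to the same RefSeq transcript. Where a gene has 2 probes they are numbered here from the higher to the lower ratio. Ms4a2 probe 1 gave the highest ratio of all member probes, 4.15 in replicate 1 and 4.43 in replicate 2. Its mean of 4.29 ± 0.20 is 19.5-fold (adjusted p 0.00208), and 98.3% of all probes lay below it. Probe 2 lay at 1.38 and 0.97, mean 1.18 ± 0.29 or 2.26-fold (adjusted p 0.0154), so that replicate 2 fell just short of 2-fold. Both probes were higher in lung, and their sizes differed by 3.11 on the log2 scale, or 8.64-fold.

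Kit, the receptor for stem cell factor, was measured by 2 probes with very different ratios. Probe 1, annotated to the RefSeq transcript of Kit, had ratios of 4.12 in replicate 1 and 4.15 in replicate 2. Its mean of 4.13 ± 0.02 (SD, n = 2) is 17.6-fold, with a limma adjusted p of 0.00193. Probe 2, named Kit in the platform annotation through a sequence record that was not matched to a RefSeq transcript here, lay at 0.02 and -0.06, mean -0.02 ± 0.06 (adjusted p 0.762). The first probe was high in both arrays, the other had opposite signs, and they lay 4.15 apart. When array medians were subtracted, probe 2 lay at 0.17 (adjusted p 0.0821). Averaging the probes gave 2.06 for Kit, a value that neither probe showed.

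Such probe differences were compared with those of other genes. Among the 2971 genes with exactly 2 named probes, the median difference between the probes was 0.61. A difference as large as that of Kit was found in 37 of them (1.25%) and one as large as that of Ms4a2 in 93 (3.13%). For the chymase gene Cma1, whose probes differed by 1.23, the share was 23.8%. The part of transcript variants, cross-hybridisation or probe quality in these differences was not tested.

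**Figure D2:**
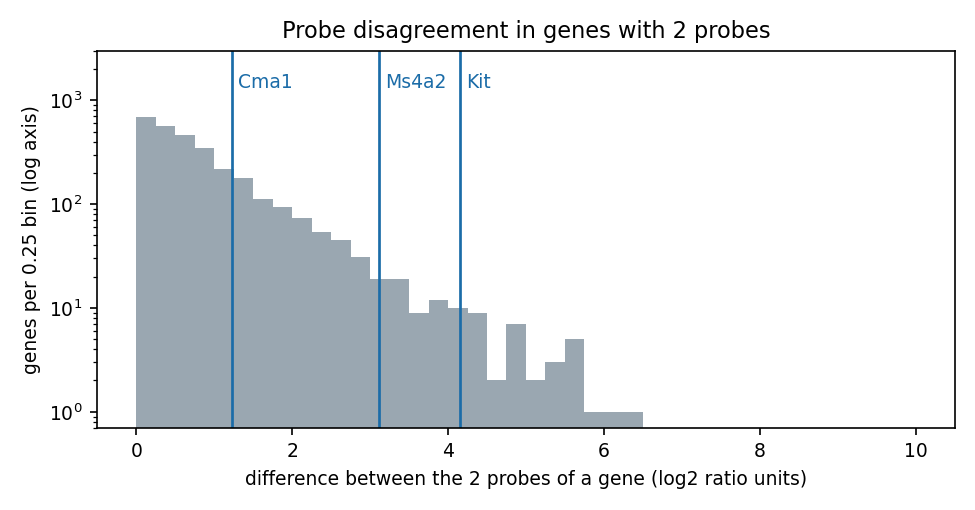
Absolute difference between the mean log2 ratios of the probes (x axis) for the 2971 genes with exactly 2 named probes, as the number of genes per bin of 0.25 (y axis, log scale). Vertical lines mark Cma1 at 1.23, Ms4a2 at 3.11 and Kit at 4.15, with Kit and Ms4a2 in the thin upper tail.

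Among the granule proteases, carboxypeptidase and chymase were higher and the measured alpha/beta tryptase was not. Cpa3, mast cell carboxypeptidase A, had ratios of 2.98 and 2.88, mean 2.93 ± 0.07 (SD, n = 2) or 7.63-fold (limma adjusted p 0.00193). Cma1, a mast cell chymase, lay at 3.97 and 4.01 with probe 1, mean 3.99 ± 0.02 or 15.9-fold (adjusted p 0.00193). Its probe 2 lay at 2.81 and 2.71, mean 2.76 ± 0.07 or 6.78-fold (adjusted p 0.00194). Both Cma1 probes were more than 2-fold higher in both arrays. Tpsab1, a tryptase stored in granules as a tetramer, lay at 0.01 in replicate 1 and 0.00 in replicate 2. The arrays thus gave the same ratio of about 1 for Tpsab1 (adjusted p 0.889), and with array medians subtracted it lay at 0.19 (adjusted p 0.0647). Signal over background was not used here, so this ratio does not say whether Tpsab1 RNA was detected in either sample.

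The probe annotated as Mcpt1 carries an accession that belongs to another gene in the current RefSeq annotation, Vch, a vascular chymase described from rat smooth muscle. It is called Vch here. Its ratios were 0.89 and 0.73, mean 0.81 ± 0.12 (SD, n = 2) or 1.76-fold (limma adjusted p 0.00791). It was the lowest of the probes that passed, and neither array reached 2-fold. The gene now called Mcpt1 lists the mast cell proteases rMCP-I and rMCP-II as synonyms, and no named probe matched its transcript by accession. Neither of these 2 proteases was therefore analysed here, and 8 of the 10 genes were measured under their current names, by 11 probes.

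**Figure D3:**
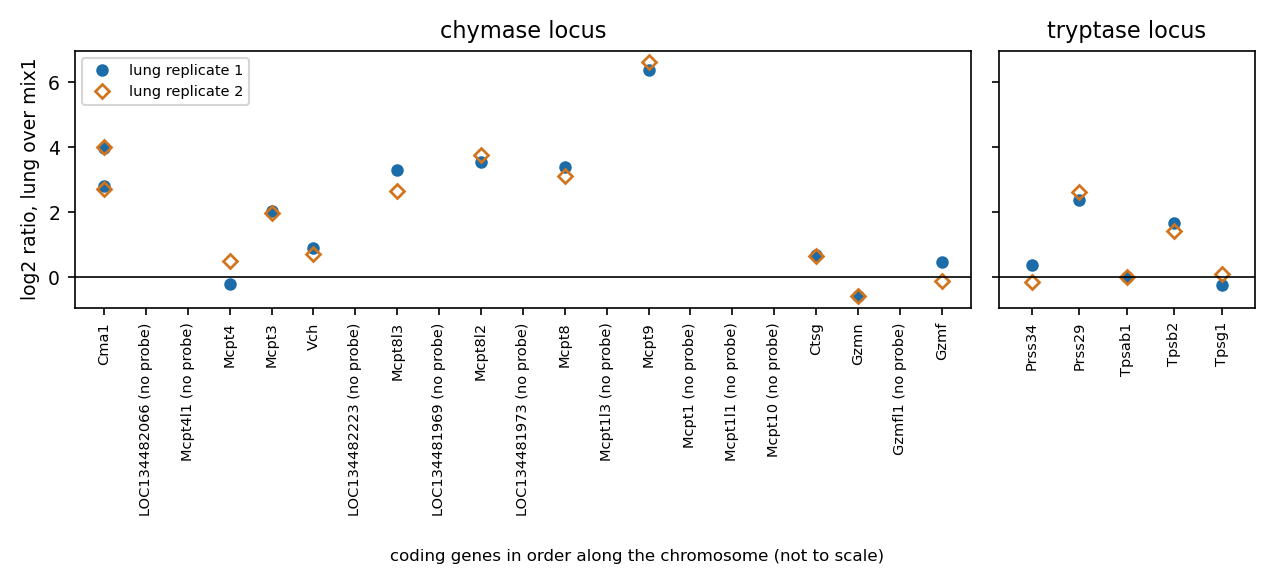
Log2 ratios of lung over mix1 (y axis) for the protease genes of the chymase and tryptase loci, in the order of the coding genes along the chromosome (x axis, ranks only); filled circles are lung replicate 1 and open diamonds lung replicate 2. Mcpt9 is highest at 6.49, Cma1 and the Mcpt8 group lie between 2.76 and 3.99, and Tpsab1 lies at 0.01 beside Tpsb2 at 1.54.

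The neighbouring proteases placed these members in their gene clusters, a view chosen after the values were seen. In rat, Cma1 and Vch lie in a cluster with other mast cell proteases, cathepsin G and granzymes. From Cma1 to Gzmf the annotation has 21 coding genes, of which 11 had a named probe. Of their 12 probes, 9 were higher in lung, 1 lower (Gzmn, -0.57 ± 0.00) and 2 did not pass (Mcpt4 and Gzmf). Over all probes, 33.2% were higher and 42.7% lower, together 75.9%. Genes were named here for their place in the clusters, outside the rule used for the lists, Gzmn and Prss29 among them. The highest was Mcpt9, with 6.37 and 6.61 in the arrays, mean 6.49 ± 0.17 (SD, n = 2) or 90.0-fold (limma adjusted p 0.00193). Mcpt8l2 lay at 3.65 ± 0.15, Mcpt8, also used as a basophil marker, at 3.26 ± 0.18, Mcpt8l3 at 2.98 ± 0.45 and Mcpt3 at 2.00 ± 0.04. In the tryptase cluster of 5 genes, Tpsb2, the tryptase next to Tpsab1, had ratios of 1.67 and 1.42, mean 1.54 ± 0.18 (adjusted p 0.00483), and Prss29 lay at 2.51 ± 0.17. Prss34 at 0.12 ± 0.37 and Tpsg1 at -0.07 ± 0.23 did not pass. These families hold close paralogs, probe sequences were not used here, and signal could be shared between them, so single ratios within a family are uncertain.

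The enzymes of mediator synthesis were higher in lung. Hdc, histidine decarboxylase, which makes histamine in a single step, had ratios of 2.34 and 2.40, mean 2.37 ± 0.04 (SD, n = 2) or 5.16-fold (limma adjusted p 0.00193). Hpgds, haematopoietic prostaglandin D synthase, which makes prostaglandin D2 in mast cells and also in some macrophages and T helper cells, had ratios of 3.81 and 3.69. Its mean was 3.75 ± 0.09 or 13.5-fold (adjusted p 0.00193). Each gene had 1 probe, and its arrays lay within 0.12 of each other.

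Ordered by mean, the probes ran from Ms4a2 probe 1, Kit probe 1, Cma1 probe 1 and Hpgds, all between 3.75 and 4.29, through Cpa3, Cma1 probe 2 and Hdc between 2.37 and 2.93. Fcer1a, Ms4a2 probe 2 and Vch followed, down to Tpsab1 and Kit probe 2. Ms4a2 probe 1 and Kit probe 1 differed by 0.15, less than the SD of 0.20 of the former, and Tpsab1 and Kit probe 2 differed by 0.02, less than the SD of 0.06 of the latter. Among neighbouring pairs, only the arrays of Tpsab1 and Kit probe 2 overlapped. Those of Ms4a2 probe 1 and Kit probe 1 nearly met, at 4.1478 and 4.1474. These are ratios within each array and not levels, so the order does not say which gene was most abundant. The 7 highest probes lay above 93.2% or more of all probes on the array.

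**Figure D4:**
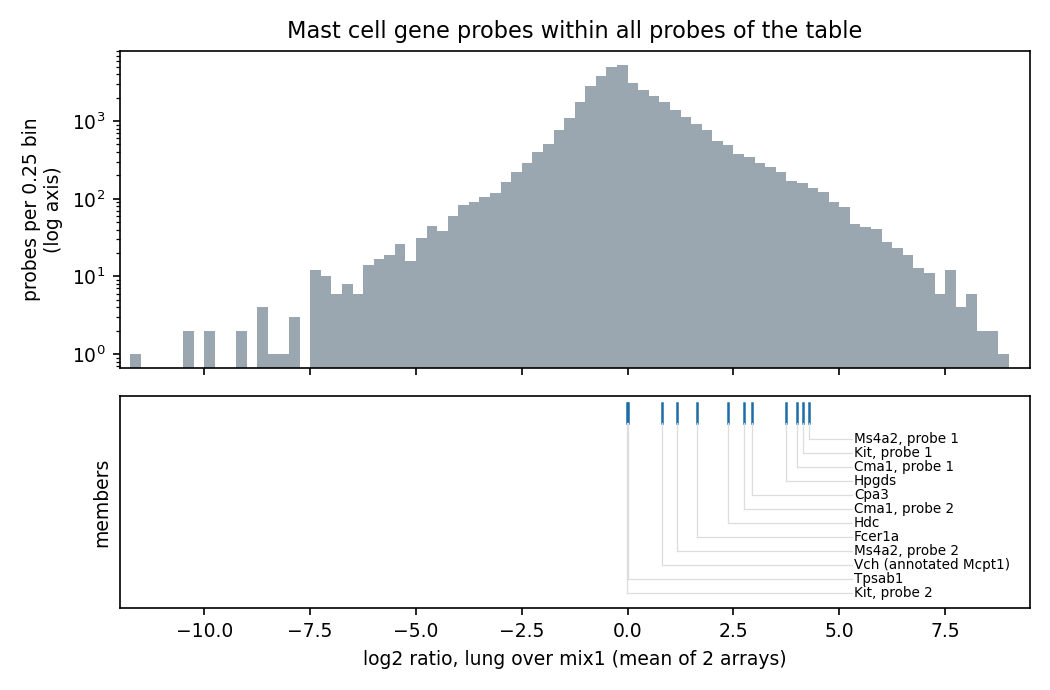
Number of probes per bin of 0.25 log2 units (upper panel, y axis, log scale) by mean log2 ratio of lung over mix1 (x axis) for all probes, with the 12 member probes as vertical marks (lower panel). The members lie between -0.02 and 4.29, all above the median of all probes at -0.20 and below the upper end at 8.99.

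The sequence before the start site is shown for Cma1, Cpa3 and Fcer1a, members higher in lung with 1 match each to the motif marked here. It is also shown for Tpsab1, which did not pass and has 2 matches. The sequences come from RefSeq for the rat build GRCr8, cover the 250 bases before the annotated start and are written 5′ to 3′ on the strand of the gene, here the minus strand for all 4. Capitals mark GATAA on either strand (TTATC is its reverse), the core bound by GATA factors such as GATA2, which mast cells need.
Cma1, chr15:33390134-33390383: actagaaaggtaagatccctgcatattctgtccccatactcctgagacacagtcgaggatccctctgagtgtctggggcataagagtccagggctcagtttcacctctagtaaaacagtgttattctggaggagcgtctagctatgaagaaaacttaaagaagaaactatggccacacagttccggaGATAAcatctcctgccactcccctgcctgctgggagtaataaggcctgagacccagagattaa
Cpa3, chr2:104673238-104673487: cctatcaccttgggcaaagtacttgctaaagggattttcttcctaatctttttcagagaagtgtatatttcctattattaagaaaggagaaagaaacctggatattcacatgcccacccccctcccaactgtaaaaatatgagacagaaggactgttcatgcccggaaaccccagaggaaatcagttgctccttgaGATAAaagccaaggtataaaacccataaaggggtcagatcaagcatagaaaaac
Fcer1a, chr13:88224680-88224929: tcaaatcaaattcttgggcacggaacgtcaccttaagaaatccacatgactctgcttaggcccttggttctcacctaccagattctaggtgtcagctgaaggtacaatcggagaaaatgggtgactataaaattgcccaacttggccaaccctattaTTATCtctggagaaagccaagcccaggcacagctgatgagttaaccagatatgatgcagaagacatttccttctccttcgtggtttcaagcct
Tpsab1, chr10:14867303-14867552: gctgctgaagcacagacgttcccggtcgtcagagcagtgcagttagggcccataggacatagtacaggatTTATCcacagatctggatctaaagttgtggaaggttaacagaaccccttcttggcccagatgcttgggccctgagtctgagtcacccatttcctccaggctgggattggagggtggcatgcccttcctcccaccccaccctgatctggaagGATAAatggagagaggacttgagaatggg

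The promoter table held 7 of the measured genes under their current names, without Ms4a2 and Hpgds. GATAA was found in 5 of them, once each in Cma1, Cpa3 and Fcer1a, where the match began 63, 54 and 93 bases before the start. Tpsab1 had 2 matches, beginning 180 and 29 bases before the start, the latter nearer than those of Cma1, Cpa3 and Fcer1a. Vch had 3, at 178, 102 and 85 bases, and Kit and Hdc had none in this window. Among 33461 rat promoters of the same length, 23.5% hold the match. The E-box CANNTG was found in 4 of 7 (65.5% of all promoters) and the ETS core GAGGAA in 3 of 7 (23.3%), both searched on either strand, and no matches of different motifs overlapped in these promoters. The match was thus present in members that were higher and in Tpsab1, which did not pass.

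Other genes of mast cell function were followed in 7 lists with 103 probes, of which 63 (61.2%) were higher and 28 (27.2%) lower in lung (median 0.91), against 33.2% higher and 42.7% lower over all probes. All 8 probes of the pan-leukocyte markers were also higher (median 2.16). The part of other cell types in the ratios of these 7 lists was not tested. Genes that carry or limit the IgE receptor signal were mostly higher. Of 23 probes, 18 (78.3%) were higher and 5 (21.7%) lower (3 lower with array medians subtracted). The kinase gene Lyn, which starts the signal, lay at 3.27 ± 0.03 (SD, n = 2), the adaptor gene Lcp2 at 2.68 ± 0.09 and 2.49 ± 0.02, and Ptpn6 at 2.65 ± 0.01. Fcer1g, the gamma chain that completes the receptor of Fcer1a and Ms4a2, was named outside the rule and lay at 2.09 ± 0.05. The phosphatase gene Inpp5d spanned from 1.58 ± 0.10 to -0.92 ± 0.00 over its 3 probes, the lowest of the list, and Orai1 lay at -0.45 ± 0.02. The KIT list had 7 of 11 probes (63.6%) higher and 4 (36.4%) lower, the latter a share near the 42.7% of all probes. Kitlg, the ligand of KIT, was its highest gene at 2.74 ± 0.00 and 2.15 ± 0.20, and the lowest were Dok1 at -1.83 ± 0.02 and Spred1 at -1.39 ± 0.30.

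Genes around histamine and prostaglandin D2 were divided. In the granule and histamine list, 7 of 15 probes were higher (46.7%, against 33.2% of all probes) and 3 lower (20%, against 42.7%). The histamine-degrading enzyme Aoc1 was highest at 5.96 ± 0.22 (SD, n = 2), the organic cation transporter Slc22a3 lay at 3.58 ± 0.31 and the granule proteoglycan core Srgn at 2.88 ± 0.07. Slc18a2, which loads histamine into granules beside the synthesis by Hdc, was named outside the rule, at 2.32 ± 0.18 and 1.48 ± 0.08. The heparan epimerase gene Glce at -1.24 ± 0.01 and -0.83 ± 0.07 and the histamine receptor gene Hrh4 at -1.15 ± 0.10 were lower. In the prostaglandin D2 and leukotriene list, 8 of 14 probes (57.1%) were higher and 5 (35.7%) lower. Hpgd at 7.30 ± 0.13, Alox5 at 3.84 ± 0.15 and Alox5ap at 2.16 ± 0.06 were highest. The cyclooxygenase genes that act before Hpgds were lower, Ptgs2 at -5.70 ± 0.09 and -3.13 ± 0.37 and Ptgs1 at -1.02 ± 0.01. Pla2g4a lay at -1.02 ± 0.04.

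Transcription factors and further surface genes of mast cells had ratios in both directions. Of 10 transcription factor probes, 6 were higher (60%, against 33.2% of all probes) and 3 lower (30%, against 42.7%). Gata2 lay at 2.22 and 2.59, mean 2.41 ± 0.26 (SD, n = 2), Spi1 at 1.98 ± 0.05 and Tal1, from its highest probe, at 0.95 ± 0.01. Tal1 had probes in both directions, the lowest at -0.46 ± 0.03. Mitf, which mast cells and melanocytes both need, lay at -0.96 ± 0.10 and Runx1 at -0.67 ± 0.04. Of 14 surface and other marker probes, 5 (35.7%) were higher, a share near that of all probes, and 8 (57.1%) were lower (median -0.37). Subtracting array medians gave 6 higher and 7 lower. With probes averaged by gene, 5 of 12 genes were higher and 6 lower, and the median was 0.30. Itgb7 at 3.86 ± 0.27, Itga4 at 2.86 ± 0.13 and Rgs13 at 1.42 ± 0.04 were the highest. The interleukin 33 receptor gene Il1rl1, abundant on mast cells, was lower with both probes, at -9.84 ± 0.01 and -3.62 ± 0.11. Enpp3 lay at -1.33 ± 0.01 and -2.05 ± 0.16. The list of other granule proteases, which overlaps the gene clusters above but is not the same set, had 12 of 16 probes (75%) higher, and 4 did not pass. After Mcpt9 and Mcpt8l2 its highest gene was the granzyme gene Gzmb at 3.41 ± 0.14, which cytotoxic lymphocytes also express, and its lowest was Tpsg1.

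**Figure D5:**
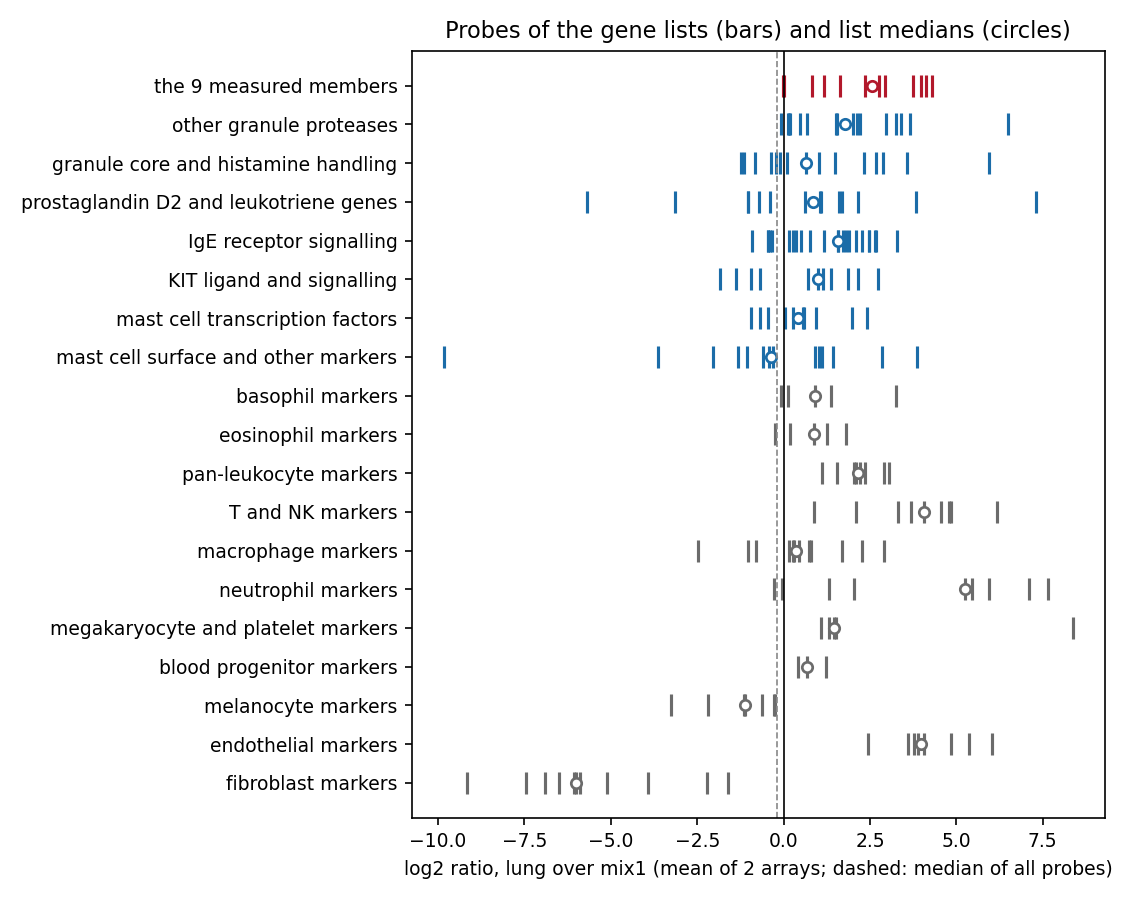
Mean log2 ratios of lung over mix1 (x axis) of the probes of each list (rows; bars are probes, circles medians), with the members in red, the 7 other mast cell lists in blue and markers of other cell types in grey. The member median of 2.56 lies near that of the pan-leukocyte markers at 2.16, below those of T and NK, neutrophil and endothelial markers and above that of fibroblast markers at -6.00. These medians are over probes, and with probes averaged by gene the neutrophil median fell to 2.03.

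Markers of other cell types differed in direction, and those of most blood and vessel cells were higher in lung, as the members were. Of the pan-leukocyte markers all 8 probes were higher (median 2.16, against 33.2% higher over all probes), from Cd48 at 1.10 ± 0.01 (SD, n = 2) to Coro1a at 3.06 ± 0.00. All 8 endothelial probes were higher (median 3.98), a cell type of the lung in which Kit is also found, from Cdh5 at 2.45 ± 0.57 to Kdr at 6.04 ± 0.11. Of T and NK markers 8 of 9 probes were higher (median 4.07), with Cd3g highest at 6.18 ± 0.21 and Cd4 lowest at 0.88 ± 0.85, which did not pass. Of neutrophil markers 7 of 9 were higher (median 5.24), from S100a9 at 7.65 ± 0.04 down to Elane at -0.29 ± 0.18, which did not pass. With probes averaged by gene, 5 of 7 neutrophil genes were higher, and their median was 2.03. Megakaryocyte and platelet markers were higher for 5 of 5 probes (median 1.47), from Pf4 at 1.08 ± 0.02 to Clec1b at 8.38 ± 0.44. For blood progenitors, cells that can also carry KIT, only 2 of the 6 listed marker genes had a named probe. Their 3 probes were higher (median 0.67, against 33.2% higher over all probes), and none reached 2-fold in both arrays. Flt3 gave the highest, 1.24 ± 0.54, and the lowest, 0.41 ± 0.17.

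Basophils share Fcer1a, Ms4a2, Hdc and Cpa3 in part with mast cells. Of their 5 marker probes 3 were higher (60%, against 33.2% of all probes) and 2 did not pass (median 0.91). Mcpt8 was the highest at 3.26 ± 0.18 (SD, n = 2) or 9.55-fold (limma adjusted p 0.00233). Il4 gave 1.37 ± 0.22 with one probe and, lowest of the list, -0.06 ± 0.43 with the other, and Prss34 did not pass. Eosinophil markers had 3 of 5 higher (60%) and 1 lower (20%, against 42.7% of all probes). With array medians subtracted, 4 were higher and none lower. These markers ran from Prg3 at 1.82 ± 0.35 to Il5ra at -0.25 ± 0.10. Macrophage markers, a second possible source of Hpgds, had 6 of 12 probes higher (50%) and 3 lower (25%). Over all probes these shares were 33.2% and 42.7%. The macrophage median was 0.36, and the probes ran from Mrc1 at 2.91 ± 0.03 to Msr1 at -2.49 ± 0.07. Markers of melanocytes and fibroblasts ran opposite to the members. Melanocytes also carry KIT, and 6 of their 7 probes were lower (4 with array medians subtracted), from Dct at -0.25 ± 0.10 to Mlana at -3.25 ± 0.22. All 11 fibroblast probes were lower (median -6.00), from Postn at -1.61 ± 0.01 to Col1a1 at -9.16 ± 0.11, against 42.7% of all probes. Each list is a ratio to the same mixed RNA, levels in either RNA were not measured separately here, and the part of these cells in the member ratios was not tested.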

How the data were processed

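Lung RNA and mix1 RNA were hybridised together on 2 arrays. The authors deposited 1 value per probe and array, taken here as log2 ratios. Per the submitters' processing notes, Agilent Feature Extraction was used. Version, background correction, dye normalization, centring, log base and direction were not given in the sources used here. How background was handled sets the size of ratios in which 1 channel is dim.

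Members were the probes whose symbol in GEO's platform annotation (20417 named probes, 1 symbol each, and 19595 unnamed) is one of the 10 genes. For the other lists, current symbols were taken by unversioned RefSeq accession (16987 probes, assembly GRCr8). The members and lists were chosen with earlier results of these data known. All 40012 probes were fitted with limma 3.58.1 in R 4.3.3 (intercept, eBayes, 1 residual and 1.31 prior degrees of freedom). Benjamini-Hochberg adjustment ran over all probes, with a threshold of 0.05. The code was run on simulated data in which every probe had the same spread and few probes were changed. That run does not cover unequal spreads or the large share of probes past the threshold here. Named outside the members were each list's highest and lowest gene and up to 2 further genes at each end past the threshold. Genes outside that rule, among them those of the protease gene clusters, are said to be. The alternatives were other centring, scaling between arrays, robust eBayes, treat, named probes only, probes averaged by gene, a stricter threshold and single arrays.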

Additional observations from a re-analysis of the deposited data

How the results depend on the processing

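The 10 member probes higher in lung stayed at 10 with array medians subtracted, with scaling between arrays, with robust eBayes and with named probes only. The count was 9 at an adjusted p under 0.01, where Ms4a2 probe 2 was lost (adjusted p 0.0154), and 8 of 9 genes when probes of a gene were averaged. Against a 2-fold change (limma's treat) it was 7, without Fcer1a (adjusted p 0.0835), Ms4a2 probe 2 (0.531) and Vch. The count of lower probes was 0 under each of these settings. Over all 40012 probes, the number higher was 13299 as deposited, 15411 with medians subtracted, 15385 with scaling and 13173 with robust eBayes. It was 9767 at an adjusted p under 0.01 and 5458 against a 2-fold change. Of the 20417 named probes 6915 were higher, as were 5143 of 15615 genes with probes averaged. In both arrays, 8 probes were at least 2-fold from 0, and 9 with array medians subtracted or scaled, with 8 to 9 in a single array, where no test is possible. With array medians subtracted, 45.3% of all calls on the array were lower, against 56.2% as deposited. Over the 7 other lists, 67 of 103 probes were higher and 25 lower with medians subtracted, and 54 and 21 of 87 genes with probes averaged. Over the whole array these were 15411 and 12774 of 40012 probes with medians subtracted. With probes averaged by annotation symbol they were 5143 and 7772 of 15615 genes. The filter on missing, 0 or repeated extreme values found none and was not run. No paired analysis was possible because there is a single group. Signal over background was not used here, so no probe's ratio could be weighed by it.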
